A study of Homo sapiens with 9 samples.

Results

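PPP1R3G and 9 further genes of glycogen metabolism were followed in HEK293T, a long-established cell line from human embryonic kidney, after treatment with small-molecule ligands of an RNA aptamer. The 10 genes are PPP1R3G, PPP1R3B, PPP1R3C, PPP1R3D, PPP1R3E, PPP1R3F, GYS1, GBE1, PYGB and PYGL, out of 57500 genes counted. They were chosen by name, 9 of them through the gene names in the deposited tables and PPP1R3C through its identifier in a reference list, and PPP1R3G was put on the list because it changed in those tables. Its differences between treatments are therefore given as a description, without a test, and the tests below concern the other members.

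RNA was taken from cells after 5 h with 10 µM HBC530, with 10 µM MsOc3HBC or with vehicle (DMSO), in 3 biological replicates each and 9 libraries in all. HBC530 lights up on binding the Pepper aptamer without forming a bond, and MsOc3HBC carries the same light-up scaffold with an added mesylate handle on a propyl linker that can alkylate a guanine of the aptamer. The comparison asks whether either ligand alters the cell's own transcripts. All groups are the same line in the same medium, and poly(A)-selected RNA was sequenced in read pairs, so the values describe 1 line, 1 dose and 1 time.

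Glycogen is the cell's branched glucose store. Protein phosphatase 1 (PP1) is brought to it by regulatory subunits of the PPP1R3 family, and there it removes phosphate from glycogen synthase, which switches the synthase on, and from glycogen phosphorylase and phosphorylase kinase, which switches breakdown off. Liver and muscle hold the large stores and use some isoforms of their own, while most other cells use the widely expressed ones. PPP1R3G itself is known from liver, where it favours glycogen synthesis.

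The libraries held 28056929 to 62205366 counts. Replicate 3 of both ligands stood apart on the first principal component of all expressed genes (36.6% of the variance), at 38.0 and 45.2 against −21.0 to −1.30 for the other 7 libraries, and these were also the shallowest libraries (34963314 and 28056929 counts). HEK293T markers (NEFL, NEFM, INA, PAX2, LIN28B) had summed levels of 62.9 to 75.1 CPM per kb, and 4 of the 5 had a mean above 1 CPM per kb. Those of hepatocytes, skeletal muscle and blood summed to at most 0.913 CPM per kb, with MYH2 at 0 in every library, and those of fibroblasts, led by COL1A1, lay between 3.09 and 4.96. For each marker set the ranges of both ligand groups overlapped that of DMSO. In bulk RNA, fewer cells that express a gene and less RNA per cell cannot be told apart.

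Levels between genes were compared as library-scaled counts (CPM) divided by exon length in kilobases (CPM per kb). PYGL, the phosphorylase named for liver, was the most abundant member at a mean of 75.7 CPM per kb over the 9 libraries (72.6 to 77.1). GYS1, the widely expressed glycogen synthase, followed at 27.4 (19.9 to 31.7) and PYGB, the phosphorylase named for brain, at 25.5 (19.8 to 28.3). GYS1 was above PYGB in 9 of 9 libraries, although the ranges of these neighbours overlapped.

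GBE1, the branching enzyme, stood well below them at 6.19 CPM per kb (5.25 to 7.18). Of the PP1 subunits, PPP1R3D led at 2.20, with PPP1R3B at 1.69, PPP1R3E at 1.37 and PPP1R3F at 0.820 CPM per kb. The ranges of PPP1R3D and PPP1R3B overlapped, as did those of PPP1R3B and PPP1R3E, and every other pair of neighbours in this order was separated in all libraries. PPP1R3G was the second lowest member at 0.273 CPM per kb, with the widest relative range of the 9 genes that could be tested (0.130 to 0.474).

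**Figure D1:**
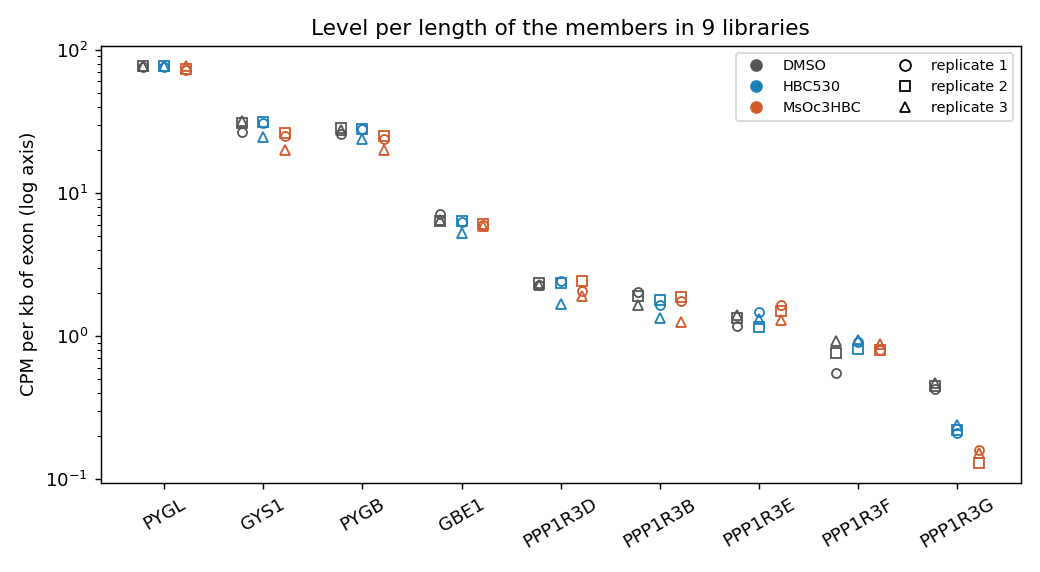
Level of 9 members in each of the 9 libraries, as CPM per kb of exon on a log axis, coloured by treatment and shaped by replicate number. PYGL lies near 75.7 and PPP1R3G near 0.273 on average, and PPP1R3G is the gene whose 3 treatment groups separate.

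PPP1R3C, the family member also known as protein targeting to glycogen, was at the limit of counting. It had 4 counts over the 3 DMSO libraries, 3 over the HBC530 libraries and 6 over the MsOc3HBC libraries, with 0 to 4 counts in any library. It was removed by the filter on low counts and no fold is given, since a library at this depth cannot tell a level of up to 3 counts (0.0482 to 0.107 CPM) from 0.

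PPP1R3G (ENSG00000219607) was lower with both ligands, and lowest with MsOc3HBC. The gene was counted over a single exon of 4907 bases at chr6:5084581-5089487 on the plus strand (GRCh38), which overlaps no other counted exon. The DMSO libraries held 2.09, 2.19 and 2.32 CPM, the HBC530 libraries 1.03, 1.09 and 1.18, and the MsOc3HBC libraries 0.784, 0.640 and 0.746. The 3 groups did not overlap at any point.

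These levels rest on few reads. The raw counts of PPP1R3G were 96, 131 and 145 in DMSO, 54, 63 and 39 with HBC530 and 35, 35 and 20 with MsOc3HBC. The means were 2.20 ± 0.116 CPM in DMSO, 1.10 ± 0.0775 with HBC530 and 0.724 ± 0.0748 with MsOc3HBC (SD, n = 3). These are the values the gene was chosen by, and they are given as a description.

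In the edgeR fit the HBC530 level of PPP1R3G was 0.496 times that of DMSO (log2 fold change −1.01). With MsOc3HBC it was 0.327 times that of DMSO (−1.61). Between the ligands, MsOc3HBC stood at 0.658 times HBC530 (−0.60). Each of these 3 comparisons shares a group of libraries with each of the others, so they are not independent. Replicate 3, which pulled several other members down, did not do so here: it was the highest PPP1R3G library of the DMSO and the HBC530 group and the middle one of the MsOc3HBC group. Without replicate 3 of the ligand, and with every DMSO library kept, the log2 fold changes from DMSO were −1.05 for HBC530 and −1.64 for MsOc3HBC. Without DMSO replicate 3 instead, they were −0.97 and −1.57.

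PPP1R3G was a small part of the transcripts of the 6 PPP1R3 members, a sum that leaves out the muscle subunit PPP1R3A (0 to 3 counts per library). It made up 6.72 ± 0.287% of their summed level per kb in DMSO, 3.67 ± 0.613% with HBC530 and 2.39 ± 0.416% with MsOc3HBC (SD, n = 3). The summed level of the other 5 was 6.23 ± 0.182, 5.95 ± 0.586 and 6.08 ± 0.634 CPM per kb in the same order. The sums of the 3 groups overlapped.

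**Figure D2:**
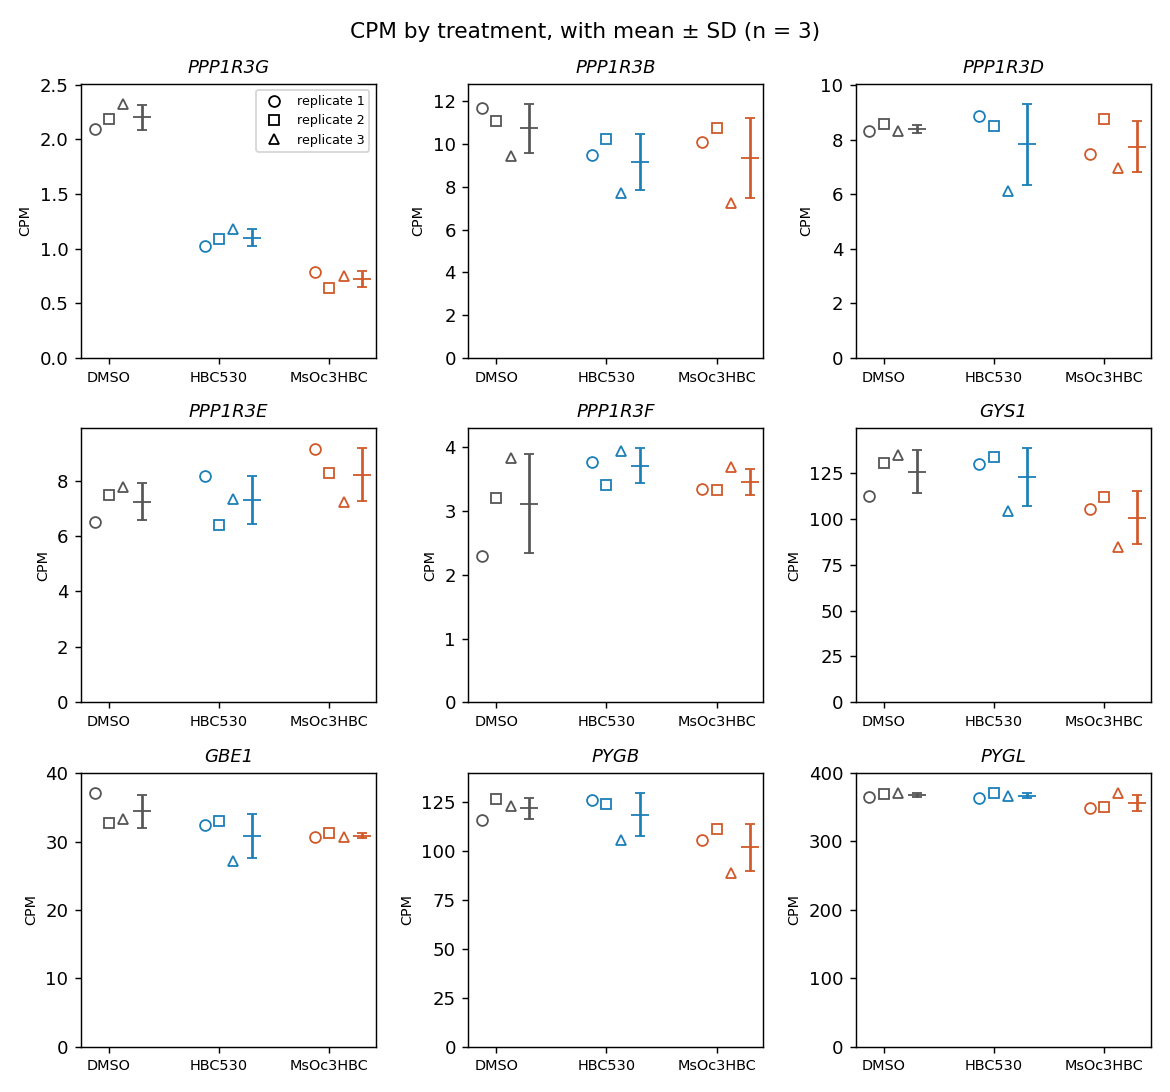
CPM of the 9 members that passed the filter in each library (open symbols, shaped by replicate number) with the mean and SD of each treatment beside them (n = 3), each panel starting at 0. PPP1R3G separates into 3 levels, GYS1, GBE1 and PYGB lie lower with MsOc3HBC than with DMSO without overlap, and the other panels overlap.

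The promoters of the members were read for 4 short motifs, as a description. RefSeq sequences (GRCh38.p14) of 250 bases before to 50 after the start were found for 8 of the 10 genes, not for PPP1R3B or PPP1R3E. The motifs, searched on both strands, were CACGTG (the E-box bound by BHLHE40, MITF and MYC), ACGTG (the core bound by hypoxia-inducible factors), GCGTG (the core bound by the aryl hydrocarbon receptor) and the general E-box CANNTG. Every CACGTG also holds ACGTG and is a CANNTG. Of 35116 promoters, 7.26% held CACGTG, 21.4% ACGTG, 36.5% GCGTG and 68.7% CANNTG.

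The PPP1R3G promoter held neither CACGTG nor ACGTG. It held 1 GCGTG at position −93 from the start and 1 CANNTG at position −164. The counted exon in the deposited files begins 760 bases upstream of the gene's start in the reference annotation used here, so both windows lie inside the region where reads were counted. CACGTG was found in PPP1R3C at position −45 and in PPP1R3D at position −209. These 4 windows of 30 bases are shown 5′ to 3′ on the gene's strand with the match in capitals, and they show the matches of PPP1R3G beside the CACGTG of the 2 members that hold one. PPP1R3F, GYS1, GBE1, PYGB and PYGL also lack CACGTG, and for the first 3 motifs PPP1R3F has the same counts as PPP1R3G.
PPP1R3G GCGTG, chr6:5085236-5085265, plus strand: aaccgggaggcgGCGTGgccccggagccgg
PPP1R3G CANNTG, chr6:5085165-5085194, plus strand: gaacacggcttcCAGGTGtcccagcggccg
PPP1R3C CACGTG, chr10:91633099-91633128, minus strand: cagggatcgggtCACGTGcttgggagcaga
PPP1R3D CACGTG, chr20:59940497-59940526, minus strand: gactgcagcggaCACGTGacgaggctgcca

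Outside its CACGTG, PPP1R3C also held ACGTG at positions −159 and −138. Among the others, GBE1 held 1 ACGTG, and GCGTG was found once in PPP1R3F, 2 times in GYS1, 2 times in GBE1 and 3 times in PYGB. With each CACGTG included, CANNTG was found 3 times in PPP1R3C, 2 times in PYGB and once each in PPP1R3D and GBE1. PYGL held none of the 4. These are matches of letters in a window and say nothing of what binds there.

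The other 4 testable PPP1R3 subunits did not pass the test with either ligand. PPP1R3B, the main subunit of liver, was at 11.7, 11.1 and 9.46 CPM in DMSO, 9.48, 10.3 and 7.70 with HBC530 and 10.1, 10.8 and 7.24 with MsOc3HBC. Its replicate 3 was the lowest library in all 3 groups, and the groups overlapped. Its log2 fold change from DMSO was −0.22 (SE 0.130) with HBC530 and −0.18 (SE 0.148) with MsOc3HBC, at adjusted p = 0.751 and 0.679 (edgeR quasi-likelihood test, Benjamini-Hochberg over all genes).

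PPP1R3D, a widely expressed subunit, was at 8.31, 8.56 and 8.32 CPM in DMSO, 8.85, 8.49 and 6.12 with HBC530 and 7.49, 8.76 and 6.94 with MsOc3HBC. The single low value with HBC530 is replicate 3. The log2 fold changes were −0.09 (SE 0.136) and −0.11 (SE 0.116), with adjusted p = 0.850 and 0.753 by edgeR. PPP1R3D shares 123 of its exonic bases (3.39%) with FAM217B on the opposite strand, and the strand setting of the counting is not given in the sources used here.

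PPP1R3E, known from muscle and heart, had its highest values under MsOc3HBC. It measured 6.50, 7.48 and 7.76 CPM in DMSO, 8.15, 6.41 and 7.33 with HBC530 and 9.12, 8.28 and 7.24 with MsOc3HBC. The groups overlapped, and the log2 fold changes were 0.01 (SE 0.124) and 0.19 (SE 0.125) at adjusted p = 0.988 and 0.600 by edgeR. It shares 206 bases with BCL2L2 and 47 with HOMEZ.

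PPP1R3F, a membrane-anchored subunit, varied most among the DMSO libraries. Its levels were 2.29, 3.20 and 3.83 CPM in DMSO, 3.77, 3.41 and 3.94 with HBC530 and 3.34, 3.33 and 3.69 with MsOc3HBC. The log2 fold changes were 0.24 (SE 0.175) and 0.14 (SE 0.181), with adjusted p = 0.751 and 0.809 by edgeR. In contrast to PPP1R3G, 2 of these 4 subunits had estimates below DMSO and 2 above, with either ligand.

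None of the 4 enzymes that build and break glycogen passed the test with either ligand. GYS1, which extends the glucose chains, was at 112.2, 130.3 and 134 CPM in DMSO, 129.7, 133 and 104 with HBC530 and 106, 111.7 and 84.4 with MsOc3HBC. Every MsOc3HBC library was below every DMSO library, though by a narrow margin at the top, and replicate 3 was the lowest library of both ligand groups. The log2 fold change of GYS1 was −0.04 (SE 0.113, 95% interval −0.29 to 0.22) with HBC530 and −0.32 (SE 0.120, −0.58 to −0.06) with MsOc3HBC. By edgeR the adjusted p were 0.933 and 0.396, so neither passed, the second with an unadjusted p of 0.0219.

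GBE1, which adds the branches, was at 37.1, 32.8 and 33.3 CPM in DMSO, 32.5, 33.0 and 27.1 with HBC530 and 30.6, 31.3 and 30.6 with MsOc3HBC. The MsOc3HBC libraries were nearly equal and all lay under the DMSO range. The log2 fold change was −0.15 with each ligand (SE 0.105 and 0.0931), with adjusted p = 0.751 and 0.564 by edgeR.

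PYGB, which releases glucose 1-phosphate from the chains, followed GYS1 closely. Its levels were 116, 127 and 123 CPM in DMSO, 126, 124 and 106 with HBC530 and 106, 111 and 88.6 with MsOc3HBC. The MsOc3HBC and DMSO groups did not overlap. The log2 fold change was −0.04 (SE 0.0933) with HBC530 and −0.25 (SE 0.104) with MsOc3HBC, at adjusted p = 0.913 and 0.420 by edgeR, the second with an unadjusted p of 0.0313.

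The ratio of GYS1 to PYGB per kb was 1.09 ± 0.0666 in DMSO, 1.09 ± 0.0466 with HBC530 and 1.04 ± 0.0295 with MsOc3HBC (SD, n = 3). The synthase and this phosphorylase thus kept nearly the same proportion in every group, and over the 9 libraries their log2 CPM had r = 0.98. The points of that correlation share library depth: r with the log2 library total was 0.94 for GYS1 and 0.92 for PYGB. Without replicate 3 of the ligand, the log2 fold changes from DMSO were 0.07 and −0.21 for GYS1 and 0.04 and −0.17 for PYGB, for HBC530 and MsOc3HBC. The part of depth and of the libraries standing apart in these differences was not tested beyond leaving them out.

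PYGL, the most abundant member, was the steadiest. It measured 365, 368 and 370.2 CPM in DMSO, 363, 370.0 and 367 with HBC530 and 348, 349.6 and 369.7 with MsOc3HBC. The third of the MsOc3HBC values falls inside the DMSO range. The log2 fold changes were −0.0040 (SE 0.0754) and −0.04 (SE 0.0876), with adjusted p = 0.989 and 0.875 by edgeR. The ratio of PYGL to PYGB per kb was 2.82 ± 0.113 in DMSO, 2.90 ± 0.289 with HBC530 and 3.30 ± 0.519 with MsOc3HBC, its highest values, 3.23 and 3.89, being replicate 3 of each ligand.

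**Figure D3:**
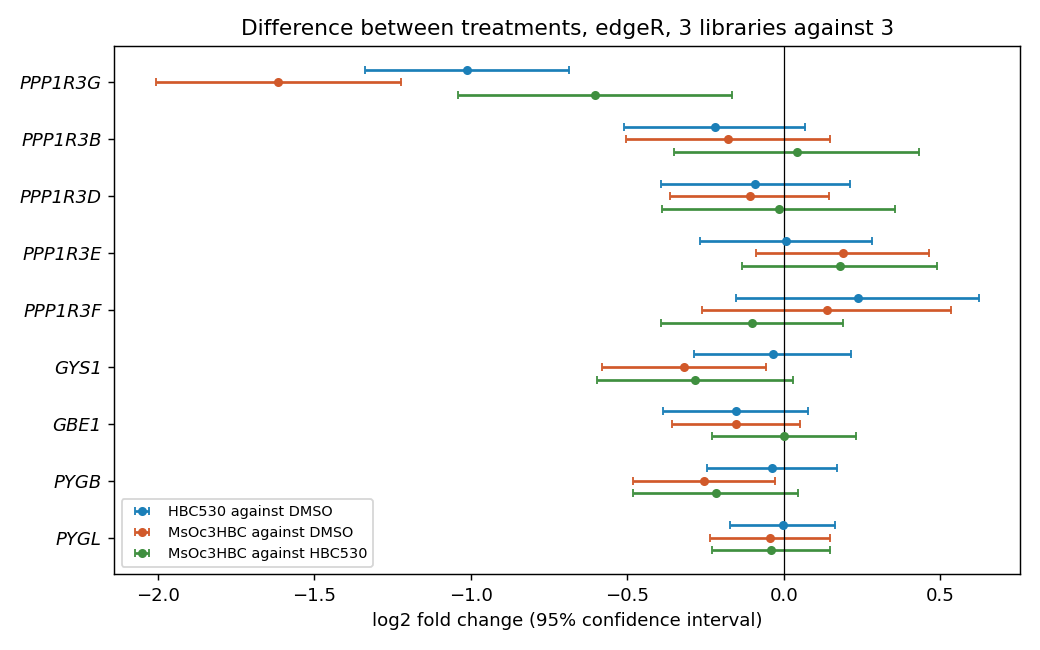
Log2 fold change with its 95% confidence interval from edgeR (3 libraries against 3) for 9 members in each of the 3 comparisons, with a line at 0. PPP1R3G was chosen by its change in these libraries, so its drawn intervals are not a test. The intervals of the other 8 lie between −0.60 and 0.62.

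Counted over the list, 9 of 10 members were expressed enough to test in each comparison, and PPP1R3G is left out of the counts because its change is why it is listed. With HBC530, 0 of the other 8 had an adjusted p under 0.05 by edgeR, where 0.017% of the 17684 genes tested did, and 0 of 8 had an unadjusted p under 0.05 (5.07% of all genes). With MsOc3HBC, 0 of 8 passed by edgeR, against 0.154% of 17514 genes, and 2 of 8, GYS1 and PYGB, had an unadjusted p under 0.05 (10.9% of all genes). By DESeq2, 0 of 8 passed with either ligand, against 0.142% and 0.735% of the genes it tested. Groups lower than DMSO without overlap were found for 0 of 8 with HBC530 (6.64% of all genes) and for 3 of 8 with MsOc3HBC (8.96% of all genes), the latter being GYS1, GBE1 and PYGB.

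The median log2 fold change of these 8 was −0.04 with HBC530 and −0.13 with MsOc3HBC, beside 0.0046 and 0.01 over all genes tested. For the 4 enzymes alone it was −0.04 and −0.20. The precision bounds what could have been missed: for all 8, the 95% intervals stayed within 1 on the log2 scale with either ligand, and within 0.5 for 6 of 8 with HBC530 and 5 of 8 with MsOc3HBC.

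MsOc3HBC was then compared directly with HBC530, with which it shares the light-up scaffold. The reactive handle comes together with its propyl linker and with shallower libraries, so its own part cannot be told apart. GYS1 and PYGB were lower with MsOc3HBC in each pair of libraries with the same replicate number. The log2 differences of GYS1 were −0.30, −0.26 and −0.31 in replicates 1, 2 and 3, and those of PYGB were −0.25, −0.16 and −0.26. The MsOc3HBC library was also the shallower one of each pair (43199102 against 51865127 counts, 52921179 against 57257546 and 28056929 against 34963314), and the levels of both genes followed depth over the 9 libraries, as given above. The part of depth in these differences was not tested. The spread between pairs was far smaller than the spread within a group, where replicate 3 was low with both ligands.

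The test depends on whether the pairs are used. Without the pairing, GYS1 differed by −0.28 on the log2 scale with an SE of 0.136 (adjusted p = 0.688, edgeR), and PYGB by −0.22 with an SE of 0.114 (adjusted p = 0.708, edgeR). Deviations of same-numbered libraries of the 2 ligands correlated across genes at 0.156 to 0.449. Replicate 3 stood apart in both groups and enters each of these values, so the pairing is an assumption. With the replicate number as a block the values were −0.28 (SE 0.0474, adjusted p = 0.00386, edgeR) for GYS1 and −0.22 (SE 0.0485, adjusted p = 0.0130, edgeR) for PYGB. With the block, 2 of the 8 members other than PPP1R3G passed, both lower, where 11.4% of 17397 genes passed and 6.9% passed in the lower direction. Without replicate 3 of either ligand, and without a block, GYS1 (−0.28, adjusted p = 0.00519) and PYGB (−0.21, adjusted p = 0.0235) passed as well, among 9.16% of genes, 6% in the lower direction.

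**Figure D4:**
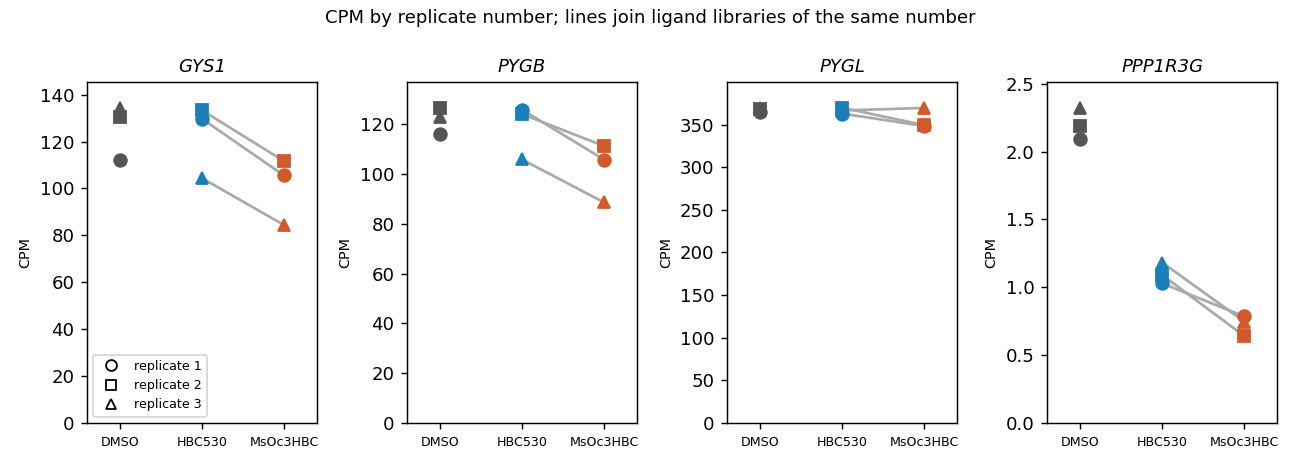
CPM of GYS1, PYGB, PYGL and PPP1R3G by treatment, shaped by replicate number, with lines joining the HBC530 and MsOc3HBC libraries of the same number and axes from 0. The lines of GYS1 and PYGB run parallel downwards, with log2 differences of −0.31 to −0.26 and −0.26 to −0.16, while those of PYGL run both ways.

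The remaining members did not pass between the ligands with or without the block. In the unblocked fit the log2 fold change was 0.18 (SE 0.135) for PPP1R3E, −0.10 (SE 0.126) for PPP1R3F, 0.04 (SE 0.170) for PPP1R3B, −0.02 (SE 0.161) for PPP1R3D and −0.04 (SE 0.0813) for PYGL. GBE1 had the same mean with both ligands, 30.9 ± 3.24 and 30.8 ± 0.388 CPM (SD, n = 3), and its difference had a 95% interval of −0.23 to 0.23. In this comparison 0 of these 8 members and 0 of all 17397 genes (0%) had an adjusted p under 0.05 by edgeR without the block, while 1274 genes (7.32%) had an unadjusted p under 0.05 and DESeq2 called 28 (0.304% of those it tested). PPP1R3G was lower with MsOc3HBC in each pair, by log2 differences of −0.38, −0.75 and −0.63. For 0 of the other 8 were the MsOc3HBC libraries all below the HBC530 libraries (8.5% of all genes).

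Beyond the members, 24 further genes of glycogen synthesis, breakdown and regulation were listed, of which 21 were expressed enough to test. By edgeR, 0 of 21 had an adjusted p under 0.05 in each of the 3 comparisons, where 0.017%, 0.154% and 0% of all genes did. At an unadjusted p under 0.05 there were 0 with HBC530, 0 with MsOc3HBC and 1 between the ligands, where 5.07%, 10.9% and 7.32% of all genes were. Their median log2 fold changes were −0.01, −0.04 and 0.03.

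Of the isoforms typical of liver and muscle, the synthase GYS2 had 1 to 4 counts per library, the phosphorylase PYGM 11 to 41 and the muscle subunit PPP1R3A 0 to 3. In contrast, PYGL and PPP1R3B, both typical of liver, were expressed, as given above. The PP1 catalytic subunits, which every PPP1R3 protein must bind, were abundant in DMSO, PPP1CA at 107 ± 6.62, PPP1CC at 44.5 ± 3.02 and PPP1CB at 22.5 ± 2.07 CPM per kb (SD, n = 3). Each lay above the summed level of the PPP1R3 subunits.

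GAA, the lysosomal glucosidase that digests glycogen, differed most clearly between the ligands. It was at 146, 149 and 148 CPM with HBC530 and at 117, 119 and 120.1 with MsOc3HBC, while the DMSO libraries ran from 104 to 145. The ligand groups did not overlap and each was tight, but the DMSO libraries spanned almost the whole distance between them. Between the ligands GAA differed by −0.31 on the log2 scale (SE 0.0757, adjusted p = 0.643 by edgeR, unadjusted p = 0.00326), and with the replicate block it was −0.31 (SE 0.0466, adjusted p = 0.00256). From DMSO to HBC530 it was 0.21 (SE 0.116, adjusted p = 0.751 by edgeR).

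With the block, PPP1CA also passed between the ligands (−0.16, SE 0.0442, adjusted p = 0.0355 by edgeR), which made 2 of 21 genes of this list, where 11.4% of all genes passed. PHKG1, a catalytic subunit of phosphorylase kinase, was also among the 3 smallest p-values between the ligands (0.60, SE 0.367, adjusted p = 0.751 by edgeR). PHKG1 had 22 to 66 counts per library, and 1 library, replicate 1 of MsOc3HBC, held the 66.

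Against DMSO the smallest p-values of the list were those of GSK3B, PPP1CC and GAA for HBC530 and of PHKG1, GSK3B and PGM1 for MsOc3HBC. GSK3B, the kinase that phosphorylates and silences glycogen synthase, had log2 fold changes of −0.29 (SE 0.133) and −0.18 (SE 0.128), at adjusted p = 0.751 and 0.632 by edgeR. Its lowest libraries were again replicate 3 of both ligands, at 30.3 and 33.4 CPM against 40.4 to 51.2 in the other 7. PPP1CC had −0.16 (SE 0.0849) with HBC530, PHKG1 0.47 (SE 0.297) and PGM1, which interconverts glucose phosphates, −0.11 (SE 0.0992) with MsOc3HBC, and none passed.

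PP1 has many further regulatory subunits that direct it elsewhere, and 30 of them were listed for comparison. Of these, 27 were tested with HBC530 and 25 in each of the other comparisons, and 0 passed an adjusted p of 0.05 by edgeR in any. At an unadjusted p under 0.05 there were 1, 3 and 0, or 3.70%, 12% and 0% of those tested, beside 5.07%, 10.9% and 7.32% of all genes. These shares lie near or below those of all genes, and the subunits with the smallest p-values are given as values only. PPP1R15A, the stress-induced subunit that directs PP1 to the translation factor eIF2 alpha, was at 28.4, 28.2 and 28.4 CPM in DMSO, 30.8, 32.9 and 37.4 with HBC530 and 34.9, 33.8 and 38.0 with MsOc3HBC. Its log2 fold changes were 0.25 (SE 0.0973, adjusted p = 0.751) and 0.33 (SE 0.0927, adjusted p = 0.289) by edgeR, and neither passed.

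The other subunits with the smallest p-values lay on both sides of DMSO with HBC530 and below DMSO with MsOc3HBC. With HBC530 they were PPP1R9A (−0.25, SE 0.134) and PPP1R12C (0.18, SE 0.119). With MsOc3HBC they were PPP1R16B (−0.43, SE 0.158, adjusted p = 0.381) and PPP1R9B, the actin-binding spinophilin (−0.24, SE 0.105, adjusted p = 0.436), both by edgeR. Between the ligands they were PPP1R37 (−0.17), PPP1R16A (−0.17) and PPP1R13L (−0.22), with adjusted p from 0.728 to 0.732. Over the whole list the log2 fold changes lay between −0.40 and 0.25 for HBC530 against DMSO, and between −0.43 and 0.33 for MsOc3HBC.

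The genes whose levels ran most like PPP1R3G were found by Pearson's r of log2 CPM over the 9 libraries, among 18040 genes. Since all points share the same 9 libraries and 3 treatments, r describes these libraries and carries no test. An r above 0.9 was reached by 29 genes (0.161%), and an r below −0.9 by 33 (0.183%). None of the other members was among them, GYS1 having r = 0.54 with PPP1R3G and PYGL 0.59.

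The 5 highest were CXCR4 (0.98), a chemokine receptor, BHLHE40 (0.97), a repressor of the basic helix-loop-helix family, SPRY1 (0.97), an inhibitor of receptor tyrosine kinase signalling, AIF1L (0.95) and NOG (0.95), the BMP antagonist noggin. CXCR4 had a mean of 4.09 ± 0.246 CPM in DMSO, 2.97 ± 0.183 with HBC530 and 2.15 ± 0.142 with MsOc3HBC. BHLHE40 stood at 58.4 ± 3.63, 34.2 ± 3.37 and 27.6 ± 2.23 CPM, and SPRY1 at 19.0 ± 0.569, 12.5 ± 0.579 and 9.48 ± 0.424 (SD, n = 3). All have the stepped order of PPP1R3G, with smaller steps: the log2 fold changes with MsOc3HBC were −0.93, −1.08 and −0.99 for these genes, and −0.12 for AIF1L and −0.70 for NOG.

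The 5 lowest were CHAC1 (−0.98), an enzyme that breaks down glutathione, BBS2 (−0.96), ATP6AP1L (−0.96), STX3 (−0.95), a syntaxin of membrane fusion, and STPG1 (−0.95). CHAC1 ran in the opposite order by larger steps, at 2.34 ± 0.0490, 6.58 ± 0.300 and 14.8 ± 1.53 CPM (SD, n = 3). The other 4 moved by smaller steps, with log2 fold changes from DMSO to MsOc3HBC of 0.30 for BBS2, 0.88 for ATP6AP1L, 0.24 for STX3 and 0.22 for STPG1.

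**Figure D5:**
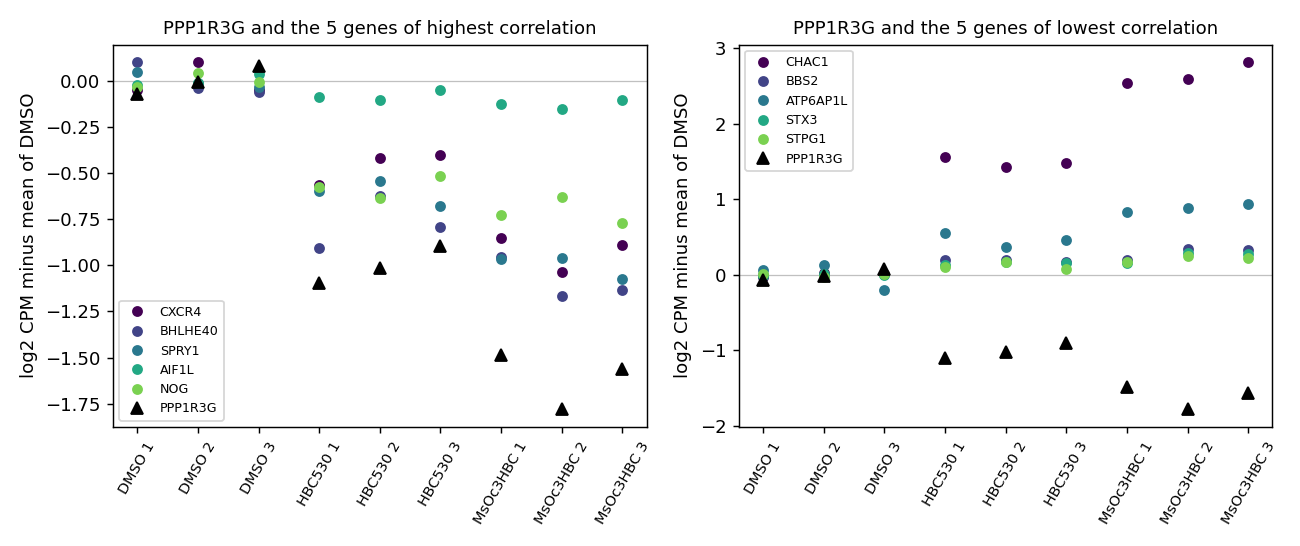
Log2 CPM of PPP1R3G (black triangles) and of the genes most like it (left) and most opposed to it (right) in each of the 9 libraries, each gene set to 0 at its DMSO mean. PPP1R3G, CXCR4, BHLHE40 and SPRY1 step down from DMSO to HBC530 to MsOc3HBC, and CHAC1 steps up in the same order.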

How the data were processed

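Poly(A) RNA of 9 libraries (DMSO, HBC530 and MsOc3HBC, 3 biological replicates each) was sequenced in read pairs. Per the submitters' processing notes, the authors used Trimmomatic 0.36 for trimming, STAR 2.5.2b for alignment to GRCh38, and featureCounts of Subread 1.5.2 for counting. The annotation release, the strand setting and the DESeq2 version are not given in the sources used here. The deposited count files hold raw counts of 57500 genes. The signal columns of the authors' 2 deposited tables hold these counts divided by DESeq2 size factors, and served to match gene names and as a check. Their other columns hold the authors' own DESeq2 fold changes and p-values and were not used.

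Counts were fitted in R 4.3.3 with edgeR 4.0.16 (filterByExpr, TMM, quasi-likelihood F test, 3 libraries against 3), with Benjamini-Hochberg adjustment over all genes of a comparison and a threshold of 0.05. CPM used TMM factors over all 9 libraries. Figures were drawn with matplotlib 3.10.9. The fits were tested on simulated data. Alternatives were RLE and upper-quartile scaling, no filter, at least 10 counts in every library, DESeq2 1.42.0, all 9 libraries in 1 fit, the replicate number as a block, each library left out in turn and both ligands' replicate 3 left out. The members and lists were chosen with earlier results of these data known. Named were all members, the 3 smallest p-values and any call of each list, the liver and muscle isoforms, and the 5 highest and lowest correlations with PPP1R3G. A gene that this rule names is not reported here.

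Replicate numbers come from the labels. Between MsOc3HBC and HBC530, deviations of same-numbered libraries from their group means correlated across genes at 0.156, 0.382 and 0.449, which was taken as pairing. Against DMSO they did so at 0.0886, 0.0199 and 0.175 for HBC530 and −0.105, 0.0170 and 0.0539 for MsOc3HBC, which was not. Totals of 28056929 to 62205366 counts give PPP1R3G 20 to 145 counts per library. Replicates of a group differed by 5.73 to 65.3 in chi-square per gene, so none is a duplicate.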

Additional observations from a re-analysis of the deposited data

How the results depend on the processing

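The log2 fold change of PPP1R3G kept its direction under every alternative run, within −1.05 to −0.96 for HBC530, −1.69 to −1.52 for MsOc3HBC and −0.67 to −0.50 between the ligands. These runs reuse the libraries that PPP1R3G was chosen by. They describe the processing, and the calls of PPP1R3G given below are not a test of its change. The other 8 members that passed the filter kept an adjusted p above 0.05 against DMSO under all 13 alternatives. The number of genes called was sensitive. With HBC530 it went from 3 to 52 without a filter, 22 with DESeq2, 5 with all 9 libraries in 1 fit and 2 to 6 with a library left out, and the members called from 0 to 1 (PPP1R3G) without a filter and with DESeq2. With MsOc3HBC it went from 27 to 250 without a filter, 129 with DESeq2 and 6 to 76 with a library left out. Members called were then 0 to 1 (PPP1R3G), with 0 without DMSO replicate 1. Between the ligands it went from 0 to 12 without a filter, 28 with DESeq2 and 4 with all 9 libraries in 1 fit, stayed at 0 with any 1 library left out, and rose to 1635 without replicate 3 of both ligands, when 2 members (GYS1 and PYGB) and 1 gene of the wider glycogen list (GAA) were called.

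The replicate block gave 16 genes and 1 member (PPP1R3G) for HBC530 and 149 genes for MsOc3HBC against DMSO, where the numbers were not taken to pair the libraries. Between the ligands, where the numbers were assumed to pair them, the block gave 1990 genes, 2 members (GYS1 at −0.28, PYGB at −0.22) and 2 genes of the wider glycogen list. It changed no other call of a member.

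Directions turned for differences near 0. Against DMSO with HBC530, PYGL was 0.010 with upper-quartile scaling and PPP1R3E −0.0036 without a filter. Leaving out a library gave −0.082 to 0.096 for PPP1R3E, −0.11 to 0.072 for GYS1, −0.19 to 0.052 for PPP1R3D, −0.082 to 0.043 for PYGB and −0.012 to 0.0032 for PYGL, and for PPP1R3F with MsOc3HBC −0.035 to 0.32. Between the ligands GBE1 was −0.012 without a filter, −0.0041 with DESeq2, −0.0020 with all 9 libraries, −0.0026 with the replicate block and −0.086 without replicate 3 of both ligands. With a library left out it ranged from −0.082 to 0.049, PPP1R3B from −0.068 to 0.19 and PPP1R3D from −0.16 to 0.077. The cause was not tested. Depth limits PPP1R3C, which passed no filter on low counts and had an adjusted p of 0.976, 0.769 and 0.799 in the 3 comparisons without one, and PPP1R3G, whose libraries hold 20 to 145 counts.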
